A study of Emberiza melanocephala with 12 samples.

Results

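Phosphoenolpyruvate carboxykinase 1 (PCK1), liver glycogen phosphorylase (PYGL), the fructose bisphosphatase TIGAR, the sugar kinases GALK2 and IDNK and the class III alcohol dehydrogenase ADH5 were followed through 24 h in the liver of the blackheaded bunting (Emberiza melanocephala), a long-distance migrant. The 6 genes were found by matching these symbols to zebra finch gene identifiers in the gene lists that accompany the study, where TIGAR also appears as C12orf5 and IDNK as C9orf103. They are 6 of the 18284 genes of the expression table. TIGAR, GALK2 and IDNK stand in the list that the study selected for a difference between states in these livers, and the whole set stands in its list of rhythmic genes. The study also places PYGL and ADH5 in a group of coexpressed genes that was higher in M. Single genes there were compared by a rank sum test with no stated adjustment over genes, which is not the test used here. By it the study reports PYGL as different between states, and it names ADH5 among the upregulated genes of that group. A call for any of the 6 genes is therefore no independent evidence.

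Liver RNA from 12 adult males was sequenced, with 1 bird for each state and time. Birds in the photostimulated migratory (M) state had been moved from short to long days until they showed nocturnal migratory restlessness. For the photorefractory, non-migratory (nM) state birds had stayed on long days until they were lean, with regressed testes. Both groups were housed alone, were under 16 h of light when sampled and differed in photoperiodic history, so state and history cannot be told apart. The 6 livers of each state were taken at ZT1, ZT5, ZT9, ZT13, ZT17 and ZT21, where ZT0 is lights on. ZT17 and ZT21 fell in the dark. Buntings feed by day, so the light hours stand here for feeding and the dark hours for fasting, although the last meal of each bird is not given in the sources used here. Captive birds in the M state were also active at night.

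The liver supplies glucose to the blood between meals from 2 sources. Glycogen phosphorylase splits glucose 1-phosphate from stored glycogen, and gluconeogenesis rebuilds glucose from lactate, amino acids and glycerol, with phosphoenolpyruvate carboxykinase at its entry. In mammals the cytosolic form, PCK1, is induced in fasting by glucagon and glucocorticoids and is shut off by insulin. In chicken liver much of the activity comes instead from a mitochondrial form encoded by another gene, which was not analysed here. The other 4 genes act on the flow of sugars and their by-products: TIGAR on the brake of glycolysis, GALK2 and IDNK on the entry of less common sugars, and ADH5 on the disposal of formaldehyde.

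Levels are given as FPKM, in which the fragments of a gene are scaled to its transcript length and to the mapped reads of the library. None of the 6 genes was at 0 in any library, and all 6 passed the filter of an FPKM above 0.1 in at least 10 of the 12 libraries, as did 9566 genes. The deposited FPKM values hold no read counts. Reads per library are listed by the study, differ several-fold, and were not used here. Libraries are named by state and time. M ZT17 stood apart: the sum of its FPKM values was 2.50 to 4.60 times that of any other, and its Spearman correlations with the rest had a median of 0.703, where no other library fell below 0.895. Of 12 named hepatocyte markers, 11 were detected and C3 was at 0 in every library. Their summed level was 41301 to 127060 FPKM in M and 56564 to 137490 FPKM in nM, led by RBP4 and FGG among those tested, and none of the 10 markers tested was called between states (an adjusted p below 0.1 with an absolute log2 difference above 0.1). ALB, the main plasma protein, was listed at 0 in the M libraries of ZT1, ZT5 and ZT9 and in nM ZT5. Red cell markers summed to 235 to 5723 FPKM in M and 134 to 484 FPKM in nM, and HBM alone reached 5716 FPKM in M at ZT17. The other marker lists summed to 99.7 to 302 FPKM in M and 129 to 312 FPKM in nM for leukocytes (led by LAPTM5 and SPI1), to 116 to 230.3 and 54.3 to 245 FPKM for bile duct (CDH1 and KRT7), and to 107 to 442 and 129 to 346 FPKM for adipocytes (CIDEA and CIDEC). Stroma and endothelium gave 212 to 711 FPKM in M and 335 to 545 FPKM in nM, and 1 of its 13 tested markers, PDGFRB, was lower in M (log2 difference -1.11, adjusted p = 0.0473), a call lost with equal totals or without M ZT5. The pancreas marker CPA1 stayed at 29.8 FPKM or less, while the muscle marker TNNT3 was at 1.05 FPKM or less in 11 libraries and at 428 FPKM in nM ZT13. The part of these markers in the results below was not tested.

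**Figure D1:**
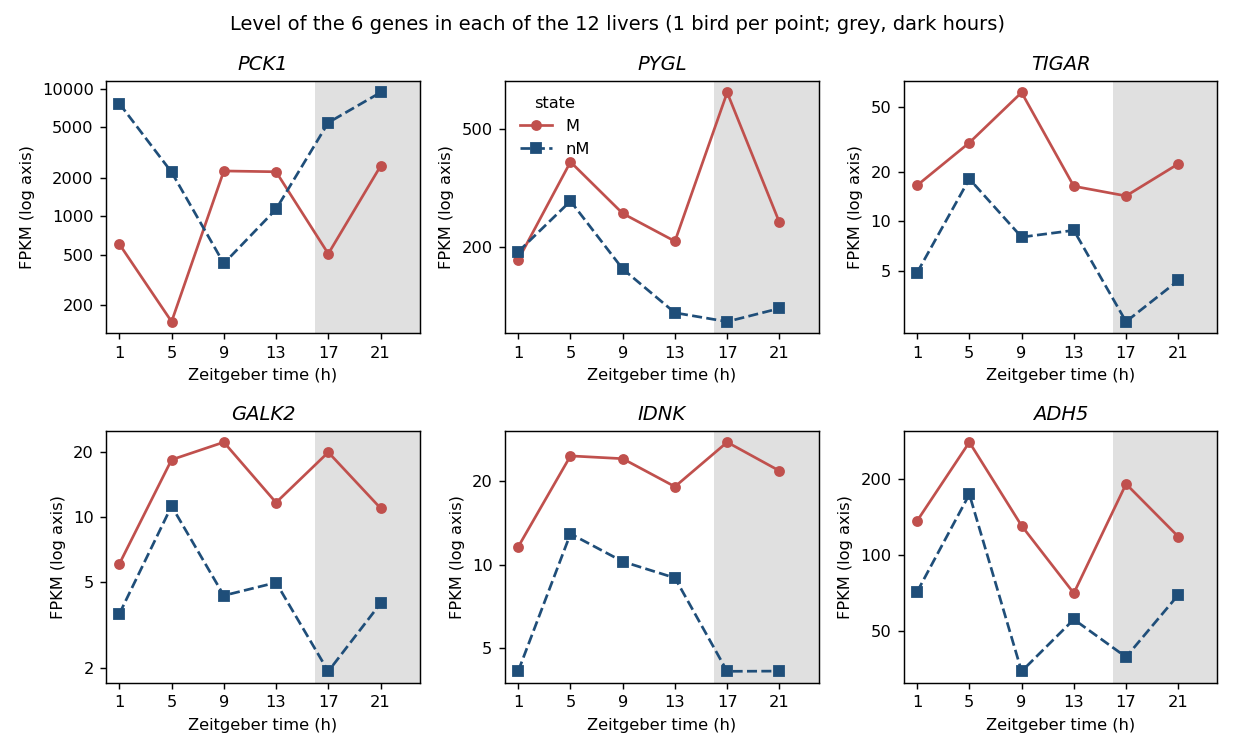
FPKM (log axis) of each gene against zeitgeber time in hours; red circles are M birds, blue squares nM birds, 1 bird per point, and grey marks the dark hours. TIGAR, GALK2, IDNK and ADH5 lie higher in M at all 6 times, whereas PCK1 is higher in nM at 4 of 6 times, with 7662, 5429 and 9355 FPKM in nM at ZT1, ZT17 and ZT21.

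PCK1 had the highest level and the widest range of the set. In nM birds it was 7662 FPKM at ZT1, 2217 at ZT5, 426 at ZT9, 1135 at ZT13, 5429 at ZT17 and 9355 at ZT21. The 3 highest nM values were thus those of the dark hours and of the hour after dawn, and the lowest fell in mid-light. In M birds PCK1 was 604 FPKM at ZT1, 149 at ZT5, 2266 at ZT9, 2233 at ZT13, 507 at ZT17 and 2471 at ZT21. The M order did not follow the nM order: ZT21 was the highest M value, and ZT9 and ZT13 lay close to it. The other dark hour, ZT17, was the second lowest M value, from the library that stood apart. The highest value was 22.0 times the lowest in nM and 16.6 times in M. On the log2(FPKM + 1) scale only 1.08% of the genes tested had a wider range over the nM livers and 5.09% over the M livers.

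Between states PCK1 was 12.7-fold lower in M at ZT1, 14.9-fold lower at ZT5, 10.7-fold lower at ZT17 and 3.79-fold lower at ZT21, but 5.32-fold higher in M at ZT9 and 1.97-fold higher at ZT13. The ratio at ZT17 rests on M ZT17, the library that stood apart. The mean was 1372 ± 1057 FPKM in M and 4371 ± 3673 FPKM in nM (SD, n = 6 each), and the states overlapped, with 3 nM values above every M value and 1 M value below every nM value. The fitted difference was -1.58 ± 0.84 (M minus nM, log2(FPKM + 1), ± SE), with an adjusted p of 0.251 in limma, and PCK1 was not called. Adjusted p stayed between 0.163 and 0.422 when any library was left out. In bulk liver, fewer cells of a type and less RNA per cell cannot be told apart, for this and every other difference given here.

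PYGL encodes the liver form of glycogen phosphorylase. In M birds it was 182 FPKM at ZT1, 387 at ZT5, 259.5 at ZT9, 209 at ZT13, 661 at ZT17 and 242 at ZT21. In nM birds it was 193, 286, 169, 120.4, 112 and 125 FPKM at the same times. The nM values were highest at ZT5 and lay at their lowest from ZT13 to ZT21, whereas the highest M value came from ZT17, the library that stood apart. PYGL was higher in M at 5 of 6 times, by 1.35-fold at ZT5 to 5.88-fold at ZT17, and 1.06-fold lower at ZT1. The mean was 323 ± 180 FPKM in M and 168 ± 65.9 FPKM in nM (SD, n = 6 each), with 2 M values above all nM values. The difference of 0.88 ± 0.34 on the log2(FPKM + 1) scale missed the threshold in limma (adjusted p = 0.139), and leaving out M ZT17 gave 0.64 (adjusted p = 0.172). It passed without M ZT1 (1.01, adjusted p = 0.0765) or nM ZT5 (1.05, adjusted p = 0.0716). Those settings called 1979 and 1576 of the 9566 genes, against 892 with all 12 libraries.

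TIGAR, which in mammalian cells lowers fructose 2,6-bisphosphate and so slows glycolysis and favours the pentose phosphate pathway, was higher in M at every time. Its M values were 16.6 FPKM at ZT1, 30.3 at ZT5, 61.4 at ZT9, 16.4 at ZT13, 14.3 at ZT17 and 22.5 at ZT21. Its nM values were 4.87, 18.2, 8.02, 8.82, 2.44 and 4.35 FPKM. Both states had a rise in mid-light, at ZT9 in M and ZT5 in nM, and both had their minimum at ZT17. M ZT17 was the lowest M library for 43.1% of the genes tested, and nM ZT17 the lowest nM library for 11.8%. In the study's list of libraries, M ZT9 had the smallest share of high-quality bases and nM ZT5 the most reads. The part of these library traits in the pattern was not tested. The nM value of ZT5 was the only nM value to reach into the M range. The ratio of M to nM ran from 1.67 at ZT5 to 7.66 at ZT9. The mean was 26.9 ± 17.9 FPKM in M and 7.78 ± 5.63 FPKM in nM (SD, n = 6 each), and the fitted difference of 1.70 ± 0.43, a 3.25-fold change on the log2(FPKM + 1) scale, was called in limma (adjusted p = 0.0495).

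GALK2 bears the name of a galactokinase, although the human enzyme acts mainly on N-acetylgalactosamine. In M birds it was 6.06 FPKM at ZT1, 18.4 at ZT5, 22.2 at ZT9, 11.7 at ZT13, 20.0 at ZT17 and 10.98 at ZT21. In nM birds it was 3.55, 11.2, 4.32, 4.96, 1.92 and 3.97 FPKM. The nM maximum at ZT5 again lay within the M range, above the M values of ZT1 and ZT21, and 4 M values exceeded all nM values. M exceeded nM at all 6 times, by 1.64-fold at ZT5 and 10.4-fold at ZT17. M ZT17, the library that stood apart, gave that largest ratio, and the next was 5.14 at ZT9. The mean was 14.9 ± 6.25 FPKM in M and 4.99 ± 3.22 FPKM in nM (SD, n = 6 each). The difference of 1.44 ± 0.36 on the log2(FPKM + 1) scale was called (limma, adjusted p = 0.0495), and leaving out M ZT17 gave 1.34 (adjusted p = 0.0507).

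IDNK, a gluconokinase that phosphorylates gluconate to the pentose phosphate intermediate 6-phosphogluconate, had the smallest spread between M birds. Its M values were 11.6 FPKM at ZT1, 24.6 at ZT5, 24.1 at ZT9, 19.1 at ZT13, 27.6 at ZT17 and 21.8 at ZT21. Its nM values were 4.14 FPKM at ZT1, 12.9 at ZT5, 10.3 at ZT9, 8.96 at ZT13, 4.13 at ZT17 and 4.14 at ZT21. The 3 nM birds taken in the dark or just after dawn thus had nearly the same low level, and the 3 from ZT5 to ZT13 were higher. The nM values of TIGAR and GALK2 split at the same hours, and no test was run within nM. Of the M values, 5 exceeded all nM values, and only the M bird of ZT1 fell below an nM bird, that of ZT5. M exceeded nM by 1.91-fold at ZT5 to 6.68-fold at ZT17. The largest ratio rests on M ZT17, the library that stood apart, and the next was 5.26 at ZT21. The mean was 21.5 ± 5.62 FPKM in M and 7.43 ± 3.82 FPKM in nM (SD, n = 6 each), and the difference of 1.49 ± 0.32 on the log2(FPKM + 1) scale was called (limma, adjusted p = 0.0291).

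ADH5 oxidises the glutathione adduct of formaldehyde and reduces S-nitrosoglutathione, and it was the third most abundant gene of the set. In M birds it was 137 FPKM at ZT1, 279.8 at ZT5, 131 at ZT9, 70.7 at ZT13, 191 at ZT17 and 118 at ZT21. In nM birds it was 71.6, 174, 34.7, 55.7, 39.5 and 69.6 FPKM. ZT5 was the highest time in both states, and the M value of ZT13 lay below 2 of the nM values, those of ZT1 and ZT5. ADH5 was higher in M at all 6 times, by 1.27-fold at ZT13 to 4.84-fold at ZT17. That largest ratio rests on M ZT17, the library that stood apart, and the next was 3.77 at ZT9. The mean was 155 ± 72.5 FPKM in M and 74.2 ± 51.2 FPKM in nM (SD, n = 6 each). The difference of 1.14 ± 0.40 on the log2(FPKM + 1) scale missed the threshold (limma, adjusted p = 0.113). It passed without nM ZT5 (1.43, adjusted p = 0.0330) and, narrowly, without M ZT1 or ZT13 (adjusted p = 0.0993 and 0.0998). Those settings called 1576, 1979 and 503 of the 9566 genes, against 892 with all 12 libraries.

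**Figure D2:**
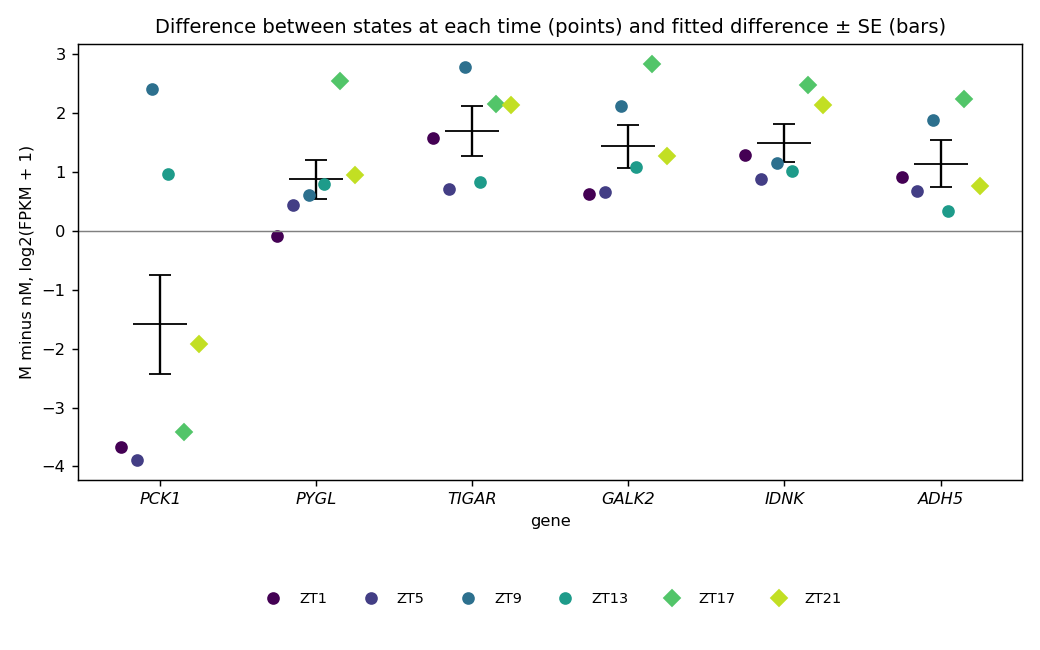
Difference between states, M minus nM in log2(FPKM + 1), for each gene at each of the 6 times (circles, light hours; diamonds, dark hours) with the fitted difference ± SE as a black bar. All 6 points lie above 0 for TIGAR, GALK2, IDNK and ADH5, 5 of 6 for PYGL and 2 of 6 for PCK1.

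Set against all genes, 3 of the 6 (TIGAR, GALK2 and IDNK) were called between states, all 3 higher in M. By the same rule 892 of 9566 genes, 9.32%, were called, 272 of them (2.84%) higher in M and 620 (6.48%) lower. The 4 genes that were higher in M at all 6 times compare with 6.91% of the genes tested. No gene of the set had states that did not overlap, against 4.18% of the genes tested. Each state had 1 liver per time, so these p-values measure the spread between birds and hours together. With every library rescaled to the same FPKM total, all 3 calls were lost, with estimates of 1.37 ± 0.39 for IDNK (adjusted p = 0.101), 1.32 ± 0.41 for GALK2 (0.128) and 1.59 ± 0.57 for TIGAR (0.177). Under it 293 genes were called, 179 higher and 114 lower. That scaling moved the median difference of all genes from -0.084 to -0.17 between states, and from -0.016 to -0.19 between dark and light hours. Median-ratio size factors, the other rescaling run, kept all 3 calls (limma, adjusted p = 0.0344 for IDNK, 0.0530 for GALK2 and 0.0514 for TIGAR). IDNK was called whichever library was left out. TIGAR and GALK2 were not called without M ZT5 (adjusted p = 0.116 and 0.118), nM ZT17 (0.111 and 0.112) or nM ZT21 (0.114 and 0.108).

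The 5 genes other than PCK1 shared a peak in the nM livers. PYGL, TIGAR, GALK2, IDNK and ADH5 all had their highest nM value at ZT5, the time at which 19.2% of the genes tested were highest. That liver also had the deepest library of the series, and the part of depth in this peak was not tested. PYGL, TIGAR, GALK2 and IDNK had their lowest nM value at ZT17, where 11.8% of the genes tested were lowest. In M the highest values were divided between ZT5 (ADH5), ZT9 (TIGAR and GALK2), ZT17 (PYGL and IDNK) and ZT21 (PCK1). M ZT17, the library that stood apart, was the highest M library for 36.5% of the genes tested and the lowest for 43.1%. The part of that library in the M peaks of PYGL and IDNK was not tested. As a description over the 12 livers, the levels of these 5 genes rose and fell together, with Spearman correlations of 0.706 to 0.944 for the 10 pairs, and PCK1 ran against all 5, at -0.371 to -0.559. The livers differ in state as well as in hour, so these coefficients mix both. Without M ZT17 the ranges were 0.682 to 0.955 and -0.273 to -0.500.

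Feeding hours were compared with fasting hours over both states, with state in the model. PCK1 was the only gene of the set with an estimate well above 0 in the dark, 1.26 ± 0.86 (dark minus light, log2(FPKM + 1), ± SE), which did not pass (limma, adjusted p = 0.546). In nM its 2 dark livers averaged 7392 FPKM and its 4 light livers 2860 ± 3285 FPKM (SD), and the light value of ZT1 lay between the dark values. In M the means were 1489 FPKM in the dark and 1313 ± 1097 FPKM in the light, and the dark values of 507 and 2471 FPKM spanned most of the range. TIGAR had the lowest estimate in the dark, -0.89 ± 0.40, with an unadjusted p of 0.0455 and an adjusted p of 0.474 in limma. The estimates were -0.30 ± 0.39 for GALK2, -0.27 ± 0.34 for IDNK, -0.14 ± 0.44 for ADH5 and 0.030 ± 0.37 for PYGL. None of the 6 was called, and of all genes 1 was called, which is 0.0105% of those tested, while 967 genes had an unadjusted p below 0.05.

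ZT1, the hour after dawn, follows the dark hours that stand here for fasting, so it was also grouped with them. Whether these birds had fed by then is not known. PCK1 then stood at 1.42 ± 0.79, TIGAR at -1.07 ± 0.33, GALK2 at -0.71 ± 0.32 and IDNK at -0.70 ± 0.26, with adjusted p of 0.614, 0.438, 0.559 and 0.504 in limma. In M the PCK1 values of this dark group (604, 507 and 2471 FPKM) overlapped those of the light hours (149, 2266 and 2233 FPKM). In nM all of them (7662, 5429 and 9355 FPKM) exceeded the light values (2217, 426 and 1135 FPKM). TIGAR, GALK2 and IDNK likewise overlapped in M and not in nM, with their nM dark group below the light hours. The share of all genes with such a split was not counted. Leaving out M ZT17 as well, which was added once the data had been seen, gave 1.76 ± 0.78 for PCK1 (adjusted p = 0.269), -1.04 ± 0.34 for TIGAR (0.182), -0.90 ± 0.28 for GALK2 (0.168) and -0.86 ± 0.21 for IDNK (0.149), and 16 genes were called, but none from the set. PYGL and ADH5 stayed near 0 with ZT1 in the dark group, at -0.10 ± 0.35 and -0.086 ± 0.41.

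**Figure D3:**
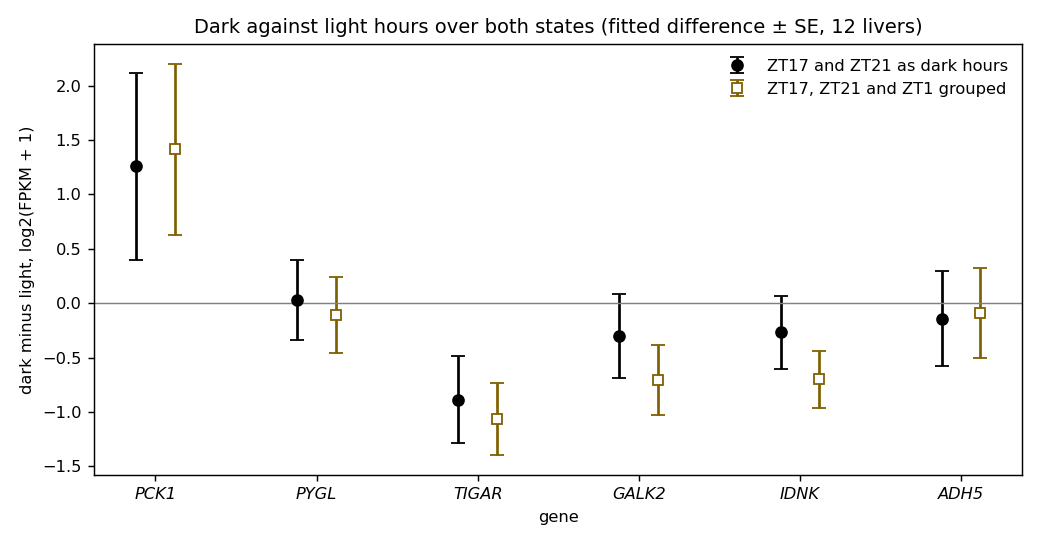
Fitted difference between dark and light hours ± SE in log2(FPKM + 1) over the 12 livers, with ZT17 and ZT21 as dark hours (filled circles) and with ZT1 added to them (open squares). PCK1 lies above 0 (1.26 and 1.42) and TIGAR below it (-0.89 and -1.07), and none of the 6 genes passed the adjusted threshold. With ZT1 added, dark and light values of PCK1, TIGAR, GALK2 and IDNK overlapped in M and did not in nM.

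Whether the dark to light difference was unlike in M and nM was tested with an interaction term. For PCK1 the difference was -1.63 ± 1.71 (M minus nM, log2(FPKM + 1), adjusted p = 0.644 in limma). With ZT1 among the dark hours it was -2.83 ± 1.42 (adjusted p = 0.984 in limma). The negative sign is that of a larger rise of PCK1 from light to dark in nM. With ZT1 among the dark hours, dark and light PCK1 values overlapped in M and did not in nM. The same held for TIGAR, GALK2 and IDNK, and no interaction estimate passed. With ZT17 and ZT21 as the dark hours, the PCK1 difference was -0.49 without M ZT17, -0.96 without nM ZT9, -2.45 without M ZT5 and -2.77 without M ZT21. With equal totals it was -2.65. The other 5 had positive estimates, from 0.55 ± 0.89 for ADH5 to 1.31 ± 0.67 for PYGL, that is, a smaller fall or a rise in the dark in M. This shared direction did not hold with equal totals, which gave -0.22 for TIGAR, -0.47 for ADH5, 0.022 for GALK2, 0.29 for PYGL and 0.31 for IDNK. IDNK averaged 4.14 FPKM in the dark and 9.08 FPKM in the light in nM, and 24.7 and 19.9 FPKM in M. Its dark M values were 27.6 FPKM at ZT17, from the library that stood apart, and 21.8 FPKM at ZT21. The light M values ran from 11.6 FPKM at ZT1 to 24.6 FPKM at ZT5. None of the 6 passed, and 0% of the genes tested were called, although 770 had an unadjusted p below 0.05 in limma. Leaving out M ZT21 left ZT17 as the only dark M liver, and 3963 genes were then called, PYGL among them (2.03, adjusted p = 0.0309), with that lone liver assumed to vary like the others. Without M ZT17 the PYGL estimate was 0.59 ± 0.63 (adjusted p = 0.999).

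A 24-h cosine common to both states was fitted as well. The study's rhythmic genes came instead from a rank-based test, listed for M, for nM and for both. A shared cosine can miss a rhythm held by M or nM alone, or with unlike phases in the states. It is therefore no check of the study's rhythm calls. TIGAR had the lowest unadjusted p of the set (0.0115), with an amplitude of 0.82 on the log2(FPKM + 1) scale and a peak at ZT7.0, but an adjusted p of 0.513 in limma. PCK1 had the largest amplitude, 1.13, and a peak at ZT19.9 (adjusted p = 0.713). The other 4 had amplitudes of 0.18 to 0.57 and adjusted p of 0.670 to 0.944. None of the 6 was called, and 5 genes, 0.0523% of those tested, were. They were the clock genes PER2 and NR1D2 with FSD2, C12orf28 and COQ10B, named after their values were seen. Without M ZT17, 37 genes were called and again none of the 6.

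The 6 genes were then set among named genes of the same pathways. Symbols were given for 4095 of the genes tested, and every such gene stands in a list the study selected on these libraries, for a state difference or for rhythm, so that the counts are no independent evidence. Of 30 symbols listed for gluconeogenesis, only 11 had an identifier and 10 were tested, so most of that list was not seen. G6PC2 had an identifier but did not pass the filter. None of the 10 was called, with a median difference of 0.18 against -0.084 for all genes. GAPDH, with the highest level, stood at 0.32 ± 0.33 (adjusted p = 0.541), and the PCK1 difference of -1.58 was the only one of the 10 beyond 0.46 in size. PCK1 also had the largest SE of the 10, 0.84, with an adjusted p of 0.251 in limma. In the glycogen list none of 10 was called (median -0.15). UGP2, which makes the UDP-glucose used for glycogen, stood at -1.06 ± 0.52 (limma, adjusted p = 0.216), the opposite sign to PYGL.

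Among 12 glycolysis genes TIGAR alone was called, and the median was 0.018. PFKFB4 and PFKFB2, whose products set the same regulator that TIGAR removes, stood at -0.28 and -0.085 and are named after their values were seen. In the list of galactose and other sugars 2 of 11 were called, both higher in M (median 0.29), where 2.84% of all genes tested were called higher. They were GALK2 and GALK1, the galactokinase of the main galactose route, at 1.81 ± 0.59 (limma, adjusted p = 0.0954). GALK1 averaged 23.5 ± 37.7 FPKM in M and 2.82 ± 1.06 FPKM in nM (SD, n = 6 each). M ZT17 carried much of that mean, at 100.3 FPKM, and without it the difference was 1.22 ± 0.31 (limma, adjusted p = 0.0382). The GALK1 call was lost in 14 of 22 other settings, among them without M ZT5, ZT9, ZT13 or ZT21 and without any nM library but that of ZT5. IDNK was the only gene called of 7 in the pentose phosphate and gluconate list (median 0.45). Among alcohol and aldehyde dehydrogenases none of 4 was called (median 0.053). ALDH1A1 and ALDH8A1, the most abundant there, stood at -0.31 ± 0.37 and 0.41 ± 0.33.

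The regulators of glucose output had 5 of 18 genes called, 1 higher in M and 4 lower (median -0.38), where 9.32% of all genes tested were called and 6.48% were lower. FOXO4, a forkhead factor held out of the nucleus by insulin signaling, fell by 1.61 on the log2 scale (limma, adjusted p = 0.0257), from 32.4 ± 11.9 FPKM in nM to 10.5 ± 5.72 FPKM in M (SD, n = 6 each). INSR, the insulin receptor, fell by 1.28 (limma, adjusted p = 0.0242), and CREB1, a factor that in mammals carries the glucagon signal to PCK1, fell by 1.31 (limma, adjusted p = 0.0573). CEBPA, a liver factor that drives gluconeogenic genes in mice, rose by 1.35 (limma, adjusted p = 0.0601). All 4 of these calls were lost with equal totals. FOXO4 and INSR were called whichever library was left out. CEBPA was not called without M ZT5 or without nM ZT9, ZT13, ZT17 or ZT21, nor CREB1 without M ZT5, ZT13 or ZT21 or without nM ZT1, ZT9, ZT17 or ZT21. Of 9 sugar transporters, SLC2A6 rose in M (1.48 ± 0.36, limma, adjusted p = 0.0456; median of the list 0.020), a call lost without nM ZT17 or ZT21. No gene in any of these lists was called between dark and light hours.

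**Figure D4:**
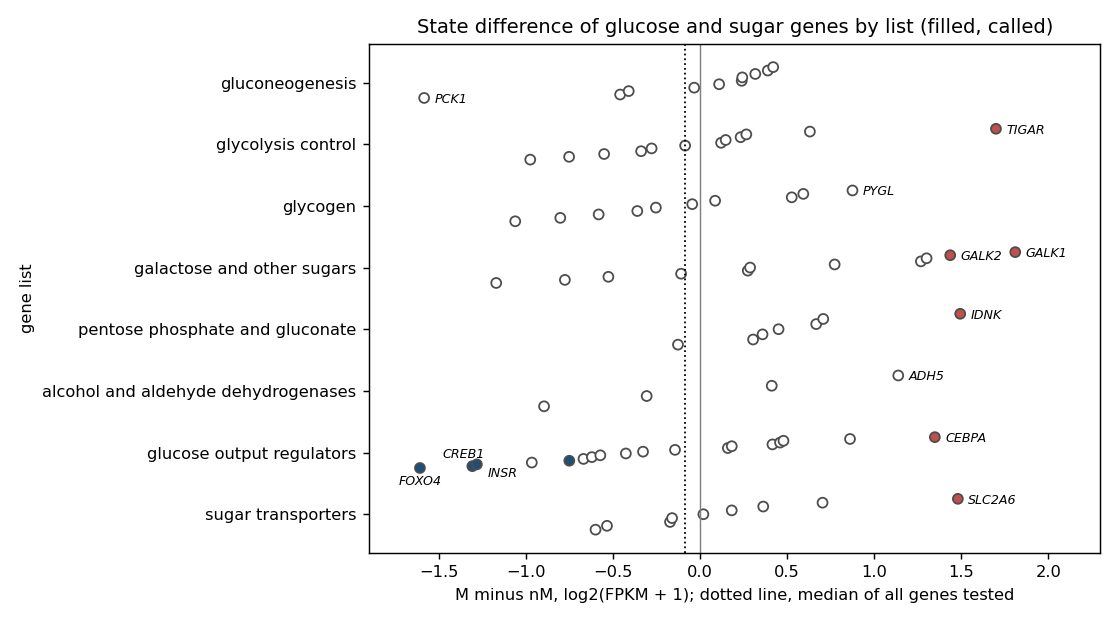
Difference between states, M minus nM in log2(FPKM + 1), of every tested gene in 8 lists of glucose and sugar metabolism, with called genes filled (red, higher in M; blue, lower) and the median of all genes dotted. PCK1 at -1.58 ± 0.84 (SE, not called) lies apart from the other 9 tested genes of gluconeogenesis, a list of 30 symbols of which only 10 were tested. TIGAR, GALK2 and IDNK are called in 3 different lists.

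The named genes whose level ran most like each of the 6 over the 12 livers were found among 4095 by Spearman correlation, as a description in which state, hour and library are shared. For PCK1 they were DNAJC12 (0.937), a co-chaperone, HMGCS1 (0.867), which makes the precursor of cholesterol, and N6AMT1 (0.839). For PYGL, NDUFV1, a subunit of respiratory complex I, CITED4 and the growth factor receptor FGFR4 all reached 0.986. For TIGAR they were DAP and RHOA (both 0.944) and HACE1 (0.937). GALK2 ran most like the mitochondrial co-chaperone HSPE1 (0.972), the phosphatase OCRL (0.965) and the RNA-binding protein HNRNPA3 (0.958). IDNK ran most like ZDHHC16 (0.986), L3HYPDH (0.979) and HABP4 (0.972). ADH5 ran most like TLL1 (0.958), UGT1A9 (0.944), a glucuronosyltransferase, and FAM168B (0.930). The 6 genes nearest to GALK2 and IDNK were all called higher in M, as was FGFR4, while the other 11 were not. Of all genes tested 2.84% were called higher in M. Likeness was measured over the same livers that hold the state difference, so these calls are no independent evidence. No gene appeared for more than 1 of the 6.

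**Figure D5:**
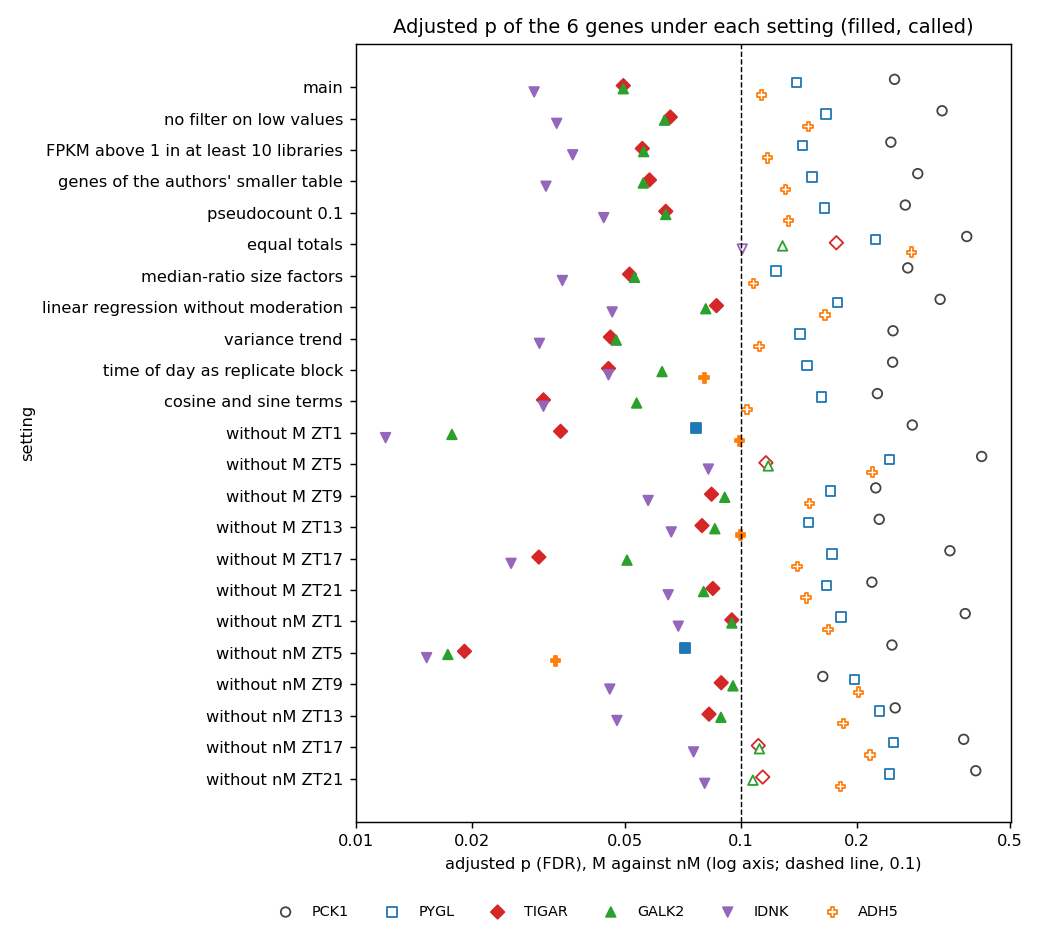
Adjusted p (log axis) of each gene for M against nM under the main setting and 22 others, with filled symbols where the gene was called and the dashed line at 0.1. IDNK lies left of the line in all settings but equal totals (0.101), TIGAR and GALK2 cross it in 4 settings each, and PCK1 stays at 0.163 or above.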

How the data were processed

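Liver libraries (poly-A selected, 1 per bird) were aligned by the authors to the zebra finch genome (taeGut build 3.2.4) with STAR after removal of ribosomal reads with Bowtie2 2.0.2, and levels were given per gene by Cufflinks 2.2.1, as their methods and processing notes state. The deposited main table holds FPKM values made by the authors. Whether these had been scaled further between libraries was not tested. The deposited log2 tables, which the authors filtered on low values to 11246 genes, equalled log2(FPKM + 1) within 1e-06 for all 134952 values. No library was a duplicate (highest Spearman 0.962). FPKM values are not counts, so no counting interval is given, the study's list of reads per library was not used, and the strand of reads was not used.

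Groups and times came from the sample labels. Genes with FPKM above 0.1 in at least 10 of 12 libraries (9566) were fitted on log2(FPKM + 1), with a pseudocount of 1, in limma 3.58.1 (R 4.3.3). The fits were M against nM, dark against light with state as a term, their interaction, and a 24-h cosine with state as a term. Benjamini-Hochberg adjusted p below 0.1 and absolute log2 difference above 0.1 made a call (for the cosine, adjusted p alone). Symbols came by gene ID from the study's gene lists (4661 IDs). The members and lists were chosen with earlier results of these data known. Genes named besides the 6 were, in each list, up to 4 called with the largest difference, or the 2 of highest level where none was called, and the 3 most like each of the 6. Alternatives were no filter, FPKM above 1, the genes of the log2 table, a pseudocount of 0.1, equal totals, median-ratio size factors, no moderation, a variance trend, the time of day as a block, cosine and sine terms, ZT1 with the dark hours, and each library left out. The script was tested on simulated data. Tables were handled with pandas 2.3.3. Some called genes are not reported here by name.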

Additional observations from a re-analysis of the deposited data

How the results depend on the processing

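Between states, the count of 892 genes became 293 with equal totals (members called, 0 in place of 3) and ranged from 200 to 1979 with 1 library left out (members called, 1 to 5). It was 1979 without the M library of ZT1, 200 without M ZT5, 560 without M ZT9, 503 without M ZT13, 1155 without M ZT17, 521 without M ZT21, 426, 1576, 404, 414, 269 and 254 without the nM library of ZT1, ZT5, ZT9, ZT13, ZT17 and ZT21. With the time of day as a replicate block 928 genes were called, and 4 of the 6, with ADH5 added (adjusted p = 0.0803 in limma). Libraries of the same time correlated at 0.026 to 0.475 in their deviations, not above 0.1 at every time, and 2 of the 6 M libraries correlated best with the nM library of their own time, so the times were not taken as pairs. For dark against light, the 1 call became 0 with no filter, the genes of the log2 table, a pseudocount of 0.1, equal totals, median-ratio size factors, no moderation or ZT1 with the dark hours, and 16 in the setting added after seeing the data (ZT1 with the dark hours and no M library of ZT17), and 0 to 1 with 1 library left out. The interaction count of 0 became 1 with a pseudocount of 0.1 and ranged from 0 to 3963 with 1 library left out (members called, 0 to 1). The cosine count of 5 became 2 with no filter, 3 with FPKM above 1, 2 with the genes of the log2 table, 1 with equal totals and 1 without moderation, and ranged from 2 to 37. The causes were not tested.

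Estimates near 0 changed sign. PYGL in the dark was -0.25 with equal totals, -0.10 with ZT1 in the dark group, -0.38 in the added setting and -0.40 to 0.22 with 1 library left out, where ADH5 ran from -0.34 to 0.079. In the interaction, equal totals gave -0.22 for TIGAR and -0.47 for ADH5, and the added setting -0.028 for PYGL and -0.11 for GALK2. The other estimates of the 6 genes in these 3 comparisons kept their direction in the settings run.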
